A study of Mus musculus with 11 samples.

Results

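Hox genes encode homeodomain transcription factors that give cells of the embryo their position along the body axis. The genes described here are all those with a name of a HoxA, HoxB, HoxC or HoxD gene as the only gene symbol of a probe set on the array. Where a gene had several probe sets, the one with the highest mean over the 11 arrays stood for it. That gave 33 Hox genes among 18193 genes measured, out of 39 Hox genes in the RefSeq annotation of the mouse. The others were not analysed here.

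The samples were total RNA from colon of adult C57BL/6 mice, hybridised to an Affymetrix mouse expression array. The 3 control arrays came from colon before imatinib, 4 arrays from colon 3 h after an imatinib injection and 4 arrays from colon 12 h after it. Imatinib inhibits tyrosine kinases, among them Abl, Kit and the PDGF receptors, and the series title places the work in EphB to Abl signalling in intestinal tumours. The labels give no dose, no segment of the colon and no mouse for an array, so a p-value reflects only how these arrays varied, which may be technical. No vehicle-injected or time-matched controls were analysed here.

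In mammals the Hox genes lie in 4 clusters, on mouse chromosomes 6 (HoxA), 11 (HoxB), 15 (HoxC) and 2 (HoxD). Genes at the same place in different clusters are paralogs and share a number. Low numbers are active early and towards the head, high numbers later and towards the tail, an order known as collinearity. The adult gut keeps part of this pattern: genes with the highest number mark the hindgut, from which the colon and rectum form, and Hoxb13 is known for its activity in the distal colon, the rectum and the prostate. Both the epithelium and the layers beneath it express Hox genes.

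Signals are linear array intensities scaled by the authors so that every array had the same trimmed mean of 100. Changes were computed on log2(signal + 16), which understates the change of dim genes, and tested with limma over all 18193 genes. A gene is said to have risen or fallen where its Benjamini-Hochberg adjusted p was under 0.05. Signals of different probe sets are not comparable as transcript amounts, and the signals of different genes show only which probe sets rose above the dim range.

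Libraries differed in other measures, some of which followed the groups. Summed signals of 9 pancreatic acinar genes were 24720 to 90480 on 5 arrays (control replicate 1, 3 h replicate 3 and 12 h replicates 1, 3 and 4), where the other 6 had 2375 to 3938. By limma 0 of the 9 were called in any comparison, at an unadjusted p under 0.05 also 0. The 24 poly-A control probe sets, which report RNA added during labelling, summed to 4401 to 5233 in control, 4958 to 5789 at 3 h and 6318 to 12220 at 12 h, so that every 12 h array lay above the other arrays. The part of this difference in the Hox results was not tested. The 3′ to 5′ signal ratio of actin, a measure of RNA integrity, was 1.27 to 1.34 in control, 1.27 to 1.38 at 3 h and 1.23 to 1.37 at 12 h. The median log2 change of all genes was -0.02 at 3 h against control, -0.01 at 12 h against control and 0.01 at 12 h against 3 h.

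Of the 33 Hox genes, 17 had a mean signal of at least 32, which is 2 times the offset, and 57.4% of all genes measured did. These were 7 of 9 HoxA genes (Hoxa3, Hoxa5, Hoxa7, Hoxa9, Hoxa10, Hoxa11 and Hoxa13), 6 of 9 HoxB genes (Hoxb2, Hoxb3, Hoxb5, Hoxb6, Hoxb9 and Hoxb13), 4 of 8 HoxD genes (Hoxd8, Hoxd9, Hoxd10 and Hoxd13) and 0 of 7 HoxC genes. Among HoxC probe sets the highest mean signal was 17.1, for Hoxc6. Hoxd9 lay just above the limit at 34.8 and Hoxd11 just below it at 30.4. The mean includes the arrays after imatinib: in control alone Hoxb3, Hoxb5, Hoxb6 and Hoxd9 averaged 31.4, 30.5, 25.6 and 29.1, so these 4 reached 32 through those arrays, while Hoxd11 averaged 32.7 in control. Directions are therefore counted over all members of a cluster. The other 16 genes were dim, and 13 of them had a mean below 16. By paralog number, 3 of 10 genes numbered 1 to 4, 5 of 9 numbered 5 to 8 and 9 of 14 numbered 9 to 13 reached 32.

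**Figure D1:**
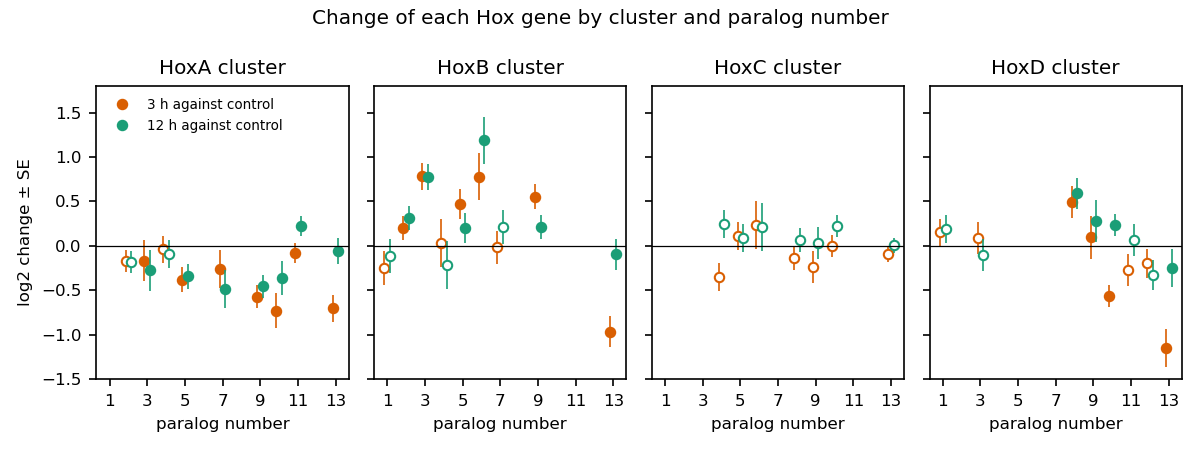
Log2 change with its standard error (y axis) of each of the 33 Hox genes by paralog number (x axis) and cluster (panels), at 3 h against control (orange) and 12 h against control (green), with filled circles for genes with a mean signal of at least 32 and open circles for dimmer ones. All 9 HoxA points at 3 h lie below 0, 6 of the 9 HoxB points lie above it at each time (Hoxb7 is also above it at 3 h under median scaling, and Hoxb4 is not with an offset of 1), and Hoxa13, Hoxb13 and Hoxd13 lie at -0.70 to -1.15 at 3 h.

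At 3 h, 5 posterior Hox genes fell and 1 anterior gene rose against control, which makes 6 of 33 called, where 2.54% of all genes were. Of the 4 measured genes with number 13, Hoxa13, Hoxb13 and Hoxd13 fell, as did Hoxd10 and Hoxa9, and the dim Hoxc13 had a log2 change of -0.09. Hoxb3 rose. By direction, 1.11% of all genes tested fell and 1.43% rose. The groups did not overlap for 6 lower Hox genes (the 5 that fell and Hoxa10) and for 3 higher ones (Hoxb3, Hoxb6 and Hoxb9), against 8.55% lower and 6.76% higher of all genes. Unadjusted p was under 0.05 for 13 of 33 Hox genes and for 15% of all genes. In bulk colon RNA, fewer cells that express a gene and less RNA per cell cannot be told apart.

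Hoxb13, the most posterior gene of its cluster, had signals of 732, 542, 444 and 694 at 3 h, against 1343, 988 and 1214 in control. Every 3 h array lay below every control array. The means were 603 ± 135 at 3 h (SD, n = 4) and 1182 ± 180 in control (SD, n = 3), a log2 change of -0.97 ± 0.17 (SE, adjusted p 0.0147 by limma).

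Hoxd13, which shapes the digits, the external genitalia and the anal sphincter, had signals of 222, 151, 102 and 181 at 3 h, against 464, 292 and 374 in control. The groups did not overlap, and 3 h replicate 3 was the lowest array, as it was for Hoxb13. The log2 change was -1.15 ± 0.21 (adjusted p 0.0172 by limma), with means of 164 ± 50.5 at 3 h (SD, n = 4) and 377 ± 86.2 in control (SD, n = 3). A second, dimmer probe set of Hoxd13 had a log2 change of -0.56 ± 0.12.

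Hoxa13, needed for the hindgut, the digits and the urogenital tract, had signals of 43.3, 33.2, 40.1 and 33.8 at 3 h, against 71.3, 84.0 and 59.4 in control. All 3 h arrays lay below all control arrays, and the log2 change was -0.70 ± 0.15 (adjusted p 0.0315 by limma). Hoxd10, a gene of the lumbar spinal cord and limb, had signals of 32.1, 32, 31.6 and 24.9 at 3 h, against 52.6, 48.7 and 54.8 in control. Again no array overlapped, with a log2 change of -0.56 ± 0.13 (adjusted p 0.0383 by limma).

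Hoxa9, best known from blood progenitors and leukaemia, had signals of 301, 280, 228 and 318 at 3 h, against 423, 487 and 368 in control. Its log2 change was -0.57 ± 0.13 (adjusted p 0.037 by limma), and a dimmer probe set gave -0.47 ± 0.14. Hoxb3, a gene of the hindbrain and neck region, had signals of 58.5, 58.7, 78.6 and 63.4 at 3 h, against 22.1, 31.9 and 40.1 in control. Every 3 h array was above every control array, with a log2 change of 0.78 ± 0.15 (adjusted p 0.0181 by limma), and its dimmer probe set gave 0.43 ± 0.24.

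**Figure D2:**
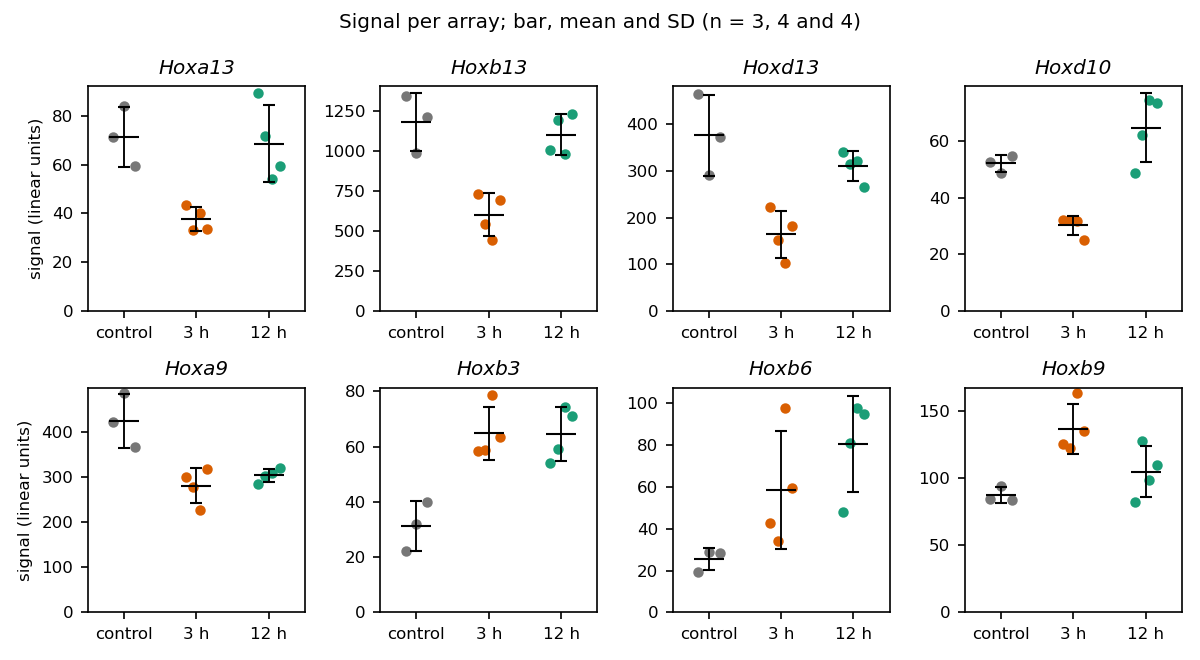
Array signal in linear units (y axis) of 8 Hox genes in control, 3 h and 12 h colon (x axis), with a point per array and bars for the mean and SD (n = 3, 4 and 4). Hoxa13, Hoxb13, Hoxd13 and Hoxd10 are lower on all 3 h arrays than on all control and 12 h arrays, while Hoxb3 is higher on all arrays after imatinib than on all control arrays.

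RefSeq promoter windows on GRCm38.p6 were available for 19 of the 33 genes, in 21 windows. The 150 bases before the start of 4 genes that fell at 3 h are shown, from the HoxA and HoxD clusters. Hoxb13, which also fell, had no window. Capitals mark matches to TATAAA on either strand.
Hoxa13, chr6:52260881-52261030, minus strand: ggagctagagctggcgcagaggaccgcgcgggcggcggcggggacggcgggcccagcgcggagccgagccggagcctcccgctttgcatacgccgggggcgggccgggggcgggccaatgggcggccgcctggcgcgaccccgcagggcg
Hoxd13, chr2:74668075-74668224, plus strand: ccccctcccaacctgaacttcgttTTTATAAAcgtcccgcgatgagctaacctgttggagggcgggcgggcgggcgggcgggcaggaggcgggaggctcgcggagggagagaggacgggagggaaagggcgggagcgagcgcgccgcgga
Hoxd10, chr2:74691741-74691890, plus strand: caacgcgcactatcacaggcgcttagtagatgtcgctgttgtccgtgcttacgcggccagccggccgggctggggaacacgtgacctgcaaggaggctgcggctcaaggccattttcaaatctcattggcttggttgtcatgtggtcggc
Hoxa9, chr6:52227371-52227520, minus strand: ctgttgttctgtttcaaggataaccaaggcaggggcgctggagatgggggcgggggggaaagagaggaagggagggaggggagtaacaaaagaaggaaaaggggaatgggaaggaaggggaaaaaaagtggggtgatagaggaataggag
Over the 250 bases before the start, GC content was 80% for Hoxa13, 74.4% for Hoxd13, 65.6% for Hoxd10 and 49.6% for Hoxa9, with 35, 31, 20 and 3 CpG pairs. The median over the 21 Hox windows was 59.2% GC and 13 CpG pairs, against 52.4% and 6 over all 32851 promoter windows. The 4 therefore span GC-rich windows and a window below the median of all promoters.

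Motifs were searched on both strands of these 250 bases. TTTATG, a CDX-type site, was found in 3 Hox windows (Hoxa7, Hoxd3 and Hoxd11) and in 10.8% of all windows. TTTACG, a site of number 13 Hox proteins, was found in 0 Hox windows and in 2.61% of all. TGATTNAT, a joint site of PBX and Hox proteins, was found in 2 (Hoxa2 and Hoxd11) and in 2.82% of all, and TATAAA in 2 (Hoxa10 and Hoxd13, where the 2 matches overlap) and in 12.4% of all. These matches describe letters only.

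Genes that did not pass the test at 3 h are given by cluster, and no test of a difference between clusters was made. All 9 HoxA genes had a log2 change below 0, from -0.04 (Hoxa4) to -0.73 (Hoxa10, adjusted p 0.0751 by limma). The dim second probe set of Hoxa10 had 0.07 and the dimmest of Hoxa3 had 0.003. A second probe set of Hoxa5 had -0.28, against -0.38 for its first. Of the 9 HoxB genes 6 lay above 0, from 0.03 (Hoxb4) to 0.78 (Hoxb3 and Hoxb6), and Hoxb1 (-0.25), Hoxb7 (-0.02) and Hoxb13 lay below it. Hoxb9, a gene of the thoracic region, reached 0.55 ± 0.14 (adjusted p 0.0553 by limma), and Hoxb5 0.47 ± 0.17 (adjusted p 0.198). In the HoxD cluster Hoxd8 had 0.49 ± 0.18 (its dimmer probe set 0.06 ± 0.16) and Hoxd9 0.09 ± 0.24, while Hoxd10 and Hoxd13 fell. Of all genes tested, 45.9% had a change above 0 at 3 h. These signs held under median and quantile scaling, except that the dim Hoxb7 became 0.01 under median scaling. With an offset of 1 the dim Hoxb4 became -0.03.

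By number, the median log2 change at 3 h was -0.00 over the 10 genes numbered 1 to 4, 0.11 over the 9 numbered 5 to 8 and -0.25 over the 14 numbered 9 to 13. Of those 14 genes, 11 lay below 0. Genes of 1 number did not all share a sign: Hoxb9 and Hoxd9 had changes above 0, and Hoxa9 fell. The 7 HoxC genes, all dim, ranged from -0.35 (Hoxc4) to 0.24 (Hoxc6), and none was called. Hoxc6 had signals of 18.8, 15.1 and 5.5 in control, of 19.4, 12.7, 17.6 and 21.5 at 3 h and of 41.6, 12.2, 16.6 and 6.7 at 12 h, so that the groups overlapped. Its 2 other probe sets had log2 changes of -0.26 and -0.17 at 3 h, of opposite sign to the first.

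Antisense transcripts of the clusters were measured by their own probe sets. Hoxa11os, from the HoxA cluster, had signals of 136, 43.4, 92.2 and 80.7 at 3 h, against 159, 223 and 177 in control. Its arrays did not overlap, but the log2 change of -1.03 ± 0.25 had an adjusted p of 0.0561 by limma. Hoxb5os had 0.32 ± 0.26 and Hoxd3os1 0.48 ± 0.25, with adjusted p of 0.646 and 0.41 by limma.

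The calls at 3 h rested on single libraries in part. The 6 Hox calls became 0 without control replicate 1 and 3 without 3 h replicate 1. They became 2 without control replicate 2, 3 h replicate 2 or 3 h replicate 3. Calls over all genes, 463 with all arrays, were 172, 259, 161, 223 and 223 in these fits, in that order. Leaving out the 5 arrays with high pancreatic sums gave 0 Hox calls, among 80 of all genes, with log2 changes of -0.74 for Hoxb13, -0.80 for Hoxd13, -0.72 for Hoxa13, -0.57 for Hoxd10, -0.48 for Hoxa9 and 0.56 for Hoxb3 (adjusted p 0.162 to 0.289 by limma). In both fits with 0 calls, all 6 genes had an unadjusted p under 0.05.

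At 12 h, Hoxb3 and Hoxb6 rose against control and 0 Hox genes fell by limma, 2 of 33 called where 1.62% of all genes were. By direction, 0.781% of all genes tested rose and 0.835% fell. The groups did not overlap for 4 higher Hox genes (Hoxb3, Hoxb6, Hoxd8 and the dim Hoxc10) and for 2 lower ones (Hoxa9 and Hoxa10), against 6.02% and 6.96% of all genes. Unadjusted p was under 0.05 for 7 of 33 Hox genes and for 15.8% of all genes.

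Hoxb6, a gene of the trunk, had signals of 48.0, 81.0, 97.8 and 95 at 12 h, against 19.4, 28.8 and 28.5 in control. Every 12 h array was above every control array, with a log2 change of 1.19 ± 0.27 (adjusted p 0.0481 by limma). At 3 h the same gene had 42.6, 34.3, 97.9 and 59.3, with a change of 0.78 ± 0.27 that was not called (adjusted p 0.167 by limma). Hoxb3 had signals of 54.1, 59.0, 74.4 and 71.0 at 12 h, against 22.1, 31.9 and 40.1 in control, a log2 change of 0.78 ± 0.15 (adjusted p 0.027 by limma).

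At 12 h 6 of the 9 HoxB genes again lay above 0, from 0.20 (Hoxb5) to 1.19 (Hoxb6), and Hoxb1, Hoxb4 and Hoxb13 lay below it, at -0.09 to -0.21. Of the 9 HoxA genes 8 lay below 0, the exception being Hoxa11 at 0.22, and of all genes tested 48.6% lay above 0. All 7 HoxC genes, all dim, lay above 0, at 0.005 to 0.24, and so did 5 of the 8 HoxD genes. Hoxd8 had 0.59 ± 0.18 (adjusted p 0.122 by limma), and its dimmer probe set 0.17 ± 0.16. By number, the medians were -0.10 (1 to 4), 0.20 (5 to 8) and 0.02 (9 to 13). Other probe sets were opposite in sign to the first for Hoxa5 (0.05 against -0.34) and Hoxa3 (0.03 and 0.12 against -0.27, with -0.03 for another). So were dim probe sets of Hoxa4 (0.13 against -0.09), Hoxb4 (0.31 against -0.21) and Hoxc6 (-0.43 and -0.18 against 0.21). Hoxa9 had signals of 286, 302, 310 and 320 at 12 h, below every control array, with a log2 change of -0.45 ± 0.13 that was not called (adjusted p 0.101 by limma). The number 13 genes did not pass the test at 12 h, with log2 changes of -0.06 for Hoxa13 (95% interval -0.39 to 0.27), -0.09 for Hoxb13 (-0.47 to 0.29) and -0.25 for Hoxd13 (-0.71 to 0.22). Each interval spans 0.

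Both calls at 12 h depended on single libraries. The count of 2 became 0 without control replicate 1, control replicate 2, 12 h replicate 2 or 12 h replicate 3. It became 1 without control replicate 3, 3 h replicate 1, 3 h replicate 4 or 12 h replicate 4. Calls over all genes, 294 with all arrays, were 71, 63, 140 and 104 in the fits with 0, in that order. In the fits with 1 they were 244, 199, 207 and 449. Hoxb3 and Hoxb6 both had an unadjusted p under 0.05 in each fit with 0 Hox calls by limma named here. Without the 5 arrays with high pancreatic sums, which leaves 1 array at 12 h assumed to vary like the other groups, the log2 change was 0.53 for Hoxb3 and 1.12 for Hoxb6 (adjusted p 0.428 and 0.303 by limma) and 0 Hox genes were called.

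**Figure D3:**
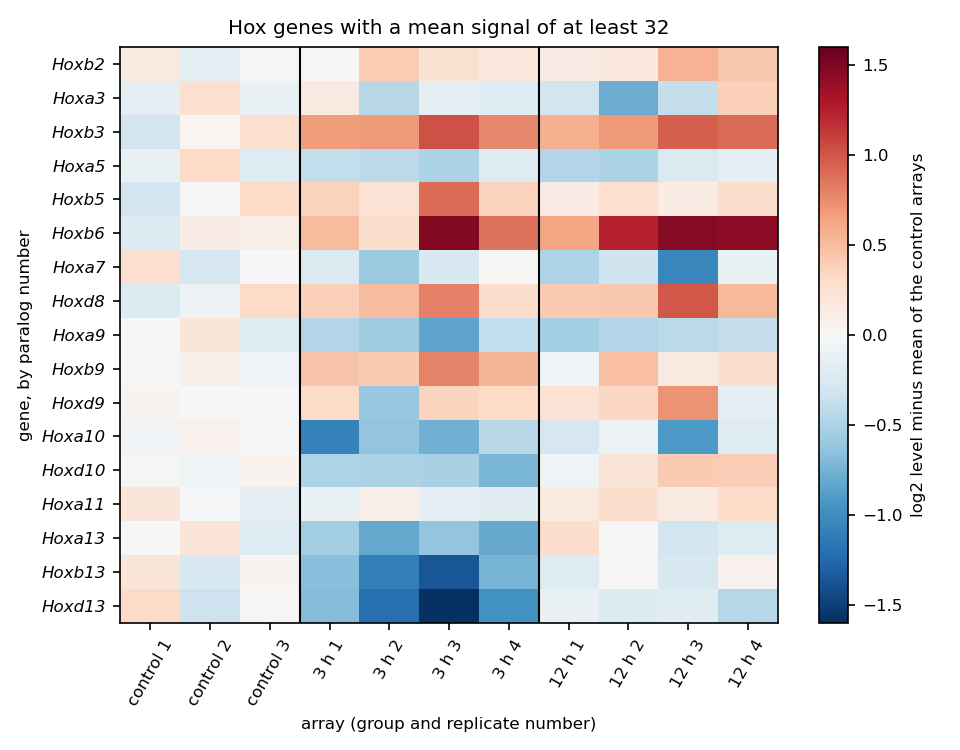
Log2 level of the 17 Hox genes with a mean signal of at least 32 (rows, by paralog number) on each of the 11 arrays (columns), as the difference from the mean of the control arrays (red higher, blue lower). The rows of Hoxb3 and Hoxb6 are red on all 3 h and 12 h arrays, and the rows of Hoxa13, Hoxb13 and Hoxd13 are blue on the 4 arrays of 3 h. Hoxb3, Hoxb5, Hoxb6 and Hoxd9 averaged below 32 in control and are shown only through the arrays after imatinib, so their display is no evidence of a rise.

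Between the time points 5 Hox genes were higher at 12 h than at 3 h by the test, Hoxa13, Hoxb13, Hoxd13, Hoxd10 and the dim Hoxc4, and 0 fell. That made 5 of 33 called, where 4.08% of all genes were, with 1.99% up and 2.09% down. The arrays of 12 h lay above those of 3 h without overlap for 5 Hox genes (Hoxa11, Hoxa13, Hoxb13, Hoxd10 and Hoxd13), against 6.28% of all genes, and below them for 0, against 5.26%. The log2 change was above 0 for 21 of 33 Hox genes and for 52.8% of all genes. Unadjusted p was under 0.05 for 7 of 33 Hox genes and for 17.7% of all genes.

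Hoxd10 had signals of 48.6, 62.1, 74.5 and 73.5 at 12 h, against 32.1, 32, 31.6 and 24.9 at 3 h. Its log2 change was 0.80 ± 0.12 (adjusted p 0.00292 by limma), the smallest adjusted p of the 33. Hoxb13 had signals of 1010.0, 1192, 979 and 1234 at 12 h, against 732, 542, 444 and 694 at 3 h, a log2 change of 0.88 ± 0.16 (adjusted p 0.0111 by limma). The groups stood apart for both genes.

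Hoxd13 had signals of 340.1, 316, 321 and 267 at 12 h, against 222, 151, 102 and 181 at 3 h, with a log2 change of 0.90 ± 0.20 (adjusted p 0.0267 by limma). Hoxa13 had signals of 89.5, 71.7, 54.1 and 59.3 at 12 h, against 43.3, 33.2, 40.1 and 33.8 at 3 h, with a log2 change of 0.65 ± 0.14 (adjusted p 0.0242 by limma). Neither gene overlapped between the times. Hoxc4, of the cervical region, had signals of 14, 21.4, 19.5 and 21.2 at 12 h, against 7.2, 15, 3 and 4.9 at 3 h, so that the groups overlapped. Its log2 change was 0.59 ± 0.15 (adjusted p 0.0446 by limma), and it lost its call in 9 of 11 fits without 1 array, with adjusted p up to 0.118.

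Hoxb13 and Hoxd10 kept their call here when any 1 array was left out, with adjusted p up to 0.0389 and 0.012 by limma. With all arrays 742 of all genes were called. The count of 5 Hox genes became 2 without 3 h replicate 3 or 12 h replicate 2 (453 and 413 of all genes). The count became 3 without 3 h replicate 2 or 4 (417 and 444 of all genes), or without 12 h replicate 1 or 3 (550 and 515). Without the 5 arrays with high pancreatic sums it became 0 by limma (5 of the 5 at an unadjusted p under 0.05), among 16 of all genes called, and the log2 changes were 0.86 for Hoxb13, 0.74 for Hoxa13, 0.74 for Hoxd13, 0.78 for Hoxd10 and 0.60 for Hoxc4 (adjusted p 0.209 to 0.423 by limma).

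Arrays of 1 group also differed. The mean log2 level of the 4 number 13 genes measured was 7.26 to 7.52 on control arrays, 6.43 to 6.86 on 3 h arrays and 7.20 to 7.35 on 12 h arrays. The mean of the 8 HoxB genes measured from Hoxb1 to Hoxb9 was 5.30 to 5.44 on control arrays, 5.61 to 5.95 on 3 h arrays and 5.47 to 5.88 on 12 h arrays. Replicate 3 of the 3 h group had both the lowest number 13 mean and the highest HoxB mean of the 11 arrays. Its pancreatic sum was 24720, where the other 3 h arrays had 2375 to 2836. Control replicate 1, with the highest pancreatic sum (90480), had the highest number 13 mean (7.52) and the lowest HoxB mean (5.30) of the 11 arrays. The part of pancreatic transcripts in these levels was not tested.

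**Figure D4:**
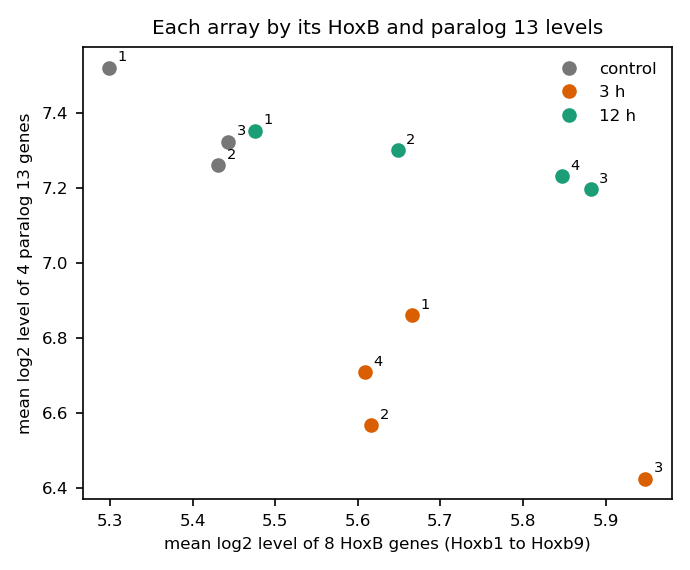
Each array by the mean log2 level of the 8 HoxB genes measured from Hoxb1 to Hoxb9 (x axis) and of the 4 number 13 genes (y axis), with replicate numbers beside the points. The control arrays sit at the upper left with 12 h replicate 1 beside them, the other 12 h arrays to their right, and the 4 arrays of 3 h below all others, between 6.43 and 6.86 on the y axis.

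Hox proteins bind DNA with TALE homeodomain partners of the PBX, MEIS and PKNOX families, of which 8 of 9 listed genes were measured. At 3 h 0 of them rose and 2 fell, where 1.43% of all genes rose and 1.11% fell. Pbx2 had signals of 96.8, 94.6, 96.8 and 115 at 3 h, against 139, 135 and 139 in control (log2 change -0.40, adjusted p 0.0446 by limma). Pbx3 had signals of 141, 166, 141 and 132 at 3 h, against 218, 195 and 202 in control (log2 change -0.46, adjusted p 0.0384 by limma). Against control at 12 h 0 were called by limma (3 at an unadjusted p under 0.05), and Pbx2 was the only partner called between 12 h and 3 h (0.56, adjusted p 0.00351 by limma). The median change of the list at 3 h was 0.00.

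The ParaHox and Evx genes are relatives of the Hox genes, and 6 of the 8 measured had a mean signal below 16. Cdx2, which specifies intestinal epithelium, rose at 3 h: its signals were 707, 739, 798 and 724, against 430, 417 and 456 in control (log2 change 0.75, adjusted p 0.00243 by limma). At 12 h they were 507, 568, 627 and 624, with a change of 0.40 against control that was not called (adjusted p 0.0701 by limma). The other 7 were not called in any comparison.

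Chromatin regulators of Hox loci were listed as repressors and activators. Of 14 Polycomb genes, whose products keep Hox genes silent, 0 were called in any comparison by limma, with 2, 2 and 1 at an unadjusted p under 0.05 at 3 h, at 12 h and between them. The smallest adjusted p at 3 h were those of Ezh1 (-0.44, adjusted p 0.0642 by limma) and Pcgf2 (-0.35, adjusted p 0.0884). Of 8 trithorax genes, which keep them active, 0 were called against control by limma, with 2 at 3 h and 3 at 12 h at an unadjusted p under 0.05. Men1 was higher at 12 h than at 3 h (log2 change 0.70, adjusted p 0.00332 by limma). Its signals were 154, 150, 122 and 125 at 12 h, against 84.8, 88.1, 70.0 and 72.0 at 3 h. Retinoic acid is a known inducer of anterior Hox genes. Of 11 retinoid genes measured, 1 rose at 3 h (Aldh1a3, 0.83, adjusted p 0.0308 by limma) and 1 at 12 h (Aldh1a1, 1.34, adjusted p 0.0297 by limma). Both encode enzymes that make retinoic acid. Of all genes tested, 1.43% rose at 3 h and 0.781% at 12 h. The median change of the 11 was -0.02 at 3 h and 0.18 at 12 h. Cyp26a1, Cyp26b1, Crabp1 and Crabp2 had means below 16. Unadjusted p was under 0.05 for 6 of the 11 at 3 h and 5 at 12 h, and for 15% and 15.8% of all genes. The part of this list in the Hox results was not tested.

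Markers of region and of other tissues were read beside the Hox genes. Of 5 distal colon genes measured, Atp12a, the colonic proton pump, fell at 3 h with signals of 523, 429, 398 and 472, against 1853, 1836 and 2114 in control (log2 change -2.05, adjusted p 0.000401 by limma). Scnn1g, a subunit of the epithelial sodium channel, rose at 3 h (1.37, adjusted p 0.00776 by limma) and at 12 h (1.53, adjusted p 0.00732). Between 12 h and 3 h Atp12a rose by 2.53 (adjusted p 2.73e-05 by limma). The distal list summed to 2974 to 3998 at 3 h, against 4929 to 5691 in control, and to 4200 to 7157 at 12 h. Atp12a alone averaged 455 ± 54.5 at 3 h (SD, n = 4) and 1934 ± 156 in control (SD, n = 3), and the median log2 change of the 5 genes at 3 h was -0.03. Its part in the Hox result was not tested.

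Of 9 small intestine genes measured, 2 rose at 3 h and 1 at 12 h, while Gata4, Lct, Apoa4, Fabp1 and Treh had means below 16. The shares of all genes that rose were 1.43% at 3 h and 0.781% at 12 h. Slc10a2, the ileal bile acid transporter, rose at both times (1.87 and 2.25, adjusted p 0.00377 and 0.00166 by limma), and Alpi, intestinal alkaline phosphatase, rose at 3 h (0.96, adjusted p 0.0499 by limma). The sums were 3390 to 5292 at 3 h, against 3100 to 3508 in control, and 3255 to 5320 at 12 h. The part of this list in the Hox result was not tested.

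Some mesenteric fat markers were higher after imatinib. Of 7 measured, Pparg and Fabp4 rose at 3 h (0.94 and 1.16, adjusted p 0.00657 and 0.0161 by limma) and Fabp4 at 12 h (1.11, adjusted p 0.0276 by limma). The shares of all genes that rose were 1.43% at 3 h and 0.781% at 12 h. Between 12 h and 3 h Pparg had -0.38 and Fabp4 -0.05, neither called. The list summed to 1878 to 2640 at 3 h, against 898 to 1173 in control, and to 1355 to 2429 at 12 h, while Lep, the defining adipocyte hormone, had a mean below 16. Every array after imatinib had a higher fat sum than every control array, so a fat covariate and the treatment cannot be fully told apart against control. With these markers as a covariate 0 Hox genes were called by limma at 3 h (5 of the 6 at an unadjusted p under 0.05) and 0 at 12 h (2 of the 2) against control, where 56 of all genes were called each time. The log2 changes at 3 h were then -0.88 for Hoxb13, -0.94 for Hoxd13, -0.30 for Hoxa13, -0.88 for Hoxd10, -0.51 for Hoxa9 and 0.57 for Hoxb3. Between 12 h and 3 h 3 Hox genes were called with the covariate, Hoxa13, Hoxb13 and Hoxd10.

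Fibroblast markers were lower at 12 h, with 5 of 10 called against control, among them Col6a3 (-1.18, adjusted p 0.00101 by limma) and Lum (-0.96, adjusted p 0.0277 by limma). Between 12 h and 3 h 5 of the 10 fell. The shares of all genes that fell were 0.835% and 2.09%. Fibroblast genes summed to 8037 to 8855 at 12 h, against 11660 to 14980 in control and 11110 to 12690 at 3 h. Smooth muscle sums were 13340 to 21270 at 12 h, against 19690 to 23830 in control, and Des and Actg2 fell between 12 h and 3 h. Against control at 12 h 0 of the 9 smooth muscle genes were called by limma. Unadjusted p was under 0.05 for 7 of them, and for 15.8% of all genes. The part of these lists in the Hox results was not tested. Of 9 general epithelial markers 0 were called by limma in any comparison, nor was any at an unadjusted p under 0.05, with sums of 41940 to 50050 at 3 h, against 45380 to 55340 in control.

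Tissues beside the colon in which number 13 Hox genes are known to be active were also read. The 7 male accessory gland genes measured had 0 calls by limma (1 at an unadjusted p under 0.05 at 3 h and 1 at 12 h), with Svs2, Svs6 and Msmb below 16. Their sums were 36.8, 39.7, 26.0 and 626.5 at 3 h and 50.8, 24.9, 339.3 and 27.2 at 12 h. In control they were 266.8, 171.9 and 397.4, above all arrays after imatinib except 3 h replicate 4 and 12 h replicate 3. Tgm4 was lower on every 3 h array than in control (-1.37, adjusted p 0.162 by limma), and Pbsn overlapped. The part of this list in the Hox results was not tested. The 4 urothelium genes had 0 calls, 0 also at an unadjusted p under 0.05, and sums of 142.3 to 185.8 at 3 h, against 119.6 to 178.8 in control. The 7 anal squamous epithelium genes had 0 calls (0 at an unadjusted p under 0.05 against control), 6 of them with means below 16, Krt5 and Krt14 included. Skeletal muscle, enteric neuron and glia, and endothelium lists had 0 calls too, with at most 2 of a list at an unadjusted p under 0.05 in a comparison. Of 7 leukocyte genes Csf1r fell at 12 h (-0.53, adjusted p 0.0445 by limma).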

How the data were processed

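Adult mouse colon RNA was measured on 11 arrays. The deposited values are linear intensity, 1 signal per probe set, scaled by the authors with 1 factor per array, as the values show; the software is not given in the sources used here. Probe sets were named by the platform annotation, updated by Entrez number to RefSeq GRCm38.p6. Of 45037 probe sets, 34945 had 1 symbol and entered, including 48 for Hox genes, and 3 shared by several Hox symbols were left out. Sequences are from RefSeq. The number of arrays limits the precision.

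Signals were taken as log2(signal + 16) and fitted with limma 3.58.1 in R 4.3.3 on all 11 arrays, 2-sided, with Benjamini-Hochberg adjustment over 18193 genes. The procedure was tested on simulated data. Figures used matplotlib 3.10.9. Members and gene lists were chosen with earlier results of these data known. Genes given with every array were Hox genes called in any comparison, the brightest of each cluster and the 6 with the smallest p, plus up to 4 members of each list. The other genes named are described by their values. Alternatives covered scaling, offset, level filter, probe set choice, variance prior, array weights, arrays fitted, a replicate block and leaving out each array. Leaving out arrays high in pancreatic transcripts, and fat markers as a covariate, were added after seeing the data.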

Additional observations from a re-analysis of the deposited data

Results flagged for a closer look

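The change from control differed between 12 h and 3 h, by the test of 12 h against 3 h, for Hoxa13 (0.65 on the log2 scale), Hoxb13 (0.88), Hoxc4 (0.59), Hoxd10 (0.80) and Hoxd13 (0.90). Among listed genes it differed for Pbx2 (0.56), Men1 (0.70), Atp12a (2.53), Actg2 (-0.76), Col1a2 (-0.58), Col3a1 (-0.50), Col6a3 (-1.08) and Des (-0.88).

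In 11 of 140 groups of 4 arrays 1 array stood far from the others, where chance gives about 1 in 20. Among Hox genes these were 2 of 66. Hoxd9 had 13.6 on 3 h replicate 2, where the others had 39.9 to 41.8, and Hoxd10 had 24.9 on 3 h replicate 4, where the others had 31.6 to 32.1. Among listed genes, 3 h replicate 4 had 114.8 for Pbx2, 11.3 for Tgm4 and 38.2 for Upk1b. Pparg had 500.5 on 3 h replicate 1 and Nos1 112.3 on 3 h replicate 2. Replicate 3 of 12 h had 56.5 for Krt10, 251.7 for Pbsn and 75.2 for Tgm4, and Pcgf2 had 29.5 on 12 h replicate 4.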

How the results depend on the processing

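The count of Hox genes called was 6 at 3 h against control, 2 at 12 h against control and 5 at 12 h against 3 h. Without single arrays it was 0 to 7, 0 to 2 and 2 to 4. Of all genes, 161 to 520, 63 to 449 and 391 to 755 were called in those fits, against 463, 294 and 742 with all arrays. An offset of 1 gave 2, 0 and 3, a fit without the 5 arrays with high pancreatic sums gave 0, 0 and 0 (6 of 6, 2 of 2 and 5 of 5 at an unadjusted p under 0.05), and fat markers as a covariate gave 0, 0 and 3. At 12 h against control an offset of 64, every probe set tested as a row and array weights each gave 1, and the mean of the probe sets and only the arrays of the 2 groups compared gave 0. The cause was not tested.

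With a replicate block the counts were 4, 3 and 4. Deviations of same-numbered arrays from their group means correlated at -0.208 to -0.024 (3 h and control) and -0.0925 to 0.309 (12 h and control). For 12 h and 3 h the correlations were -0.055 to 0.193. The labels do not say whether the numbers pair the samples, and weak correlations cannot exclude it.

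Among the Hox genes given with every array, signs turned only for small, uncalled changes. Hoxa13 at 12 h against control was -0.17 to 0.043 without single arrays (above 0 without control replicate 2 or 12 h replicate 3), 0.014 without the 5 arrays and 0.23 with the fat covariate. Hoxb13 was -0.21 to 0.0043 there (above 0 without control replicate 1) and 0.12 without the 5 arrays. Hoxc6 became -0.062 at 3 h and -0.13 at 12 h with the mean of probe sets, and was -0.052 to 0.40 at 12 h without single arrays (below 0 without 12 h replicate 1). At 12 h against 3 h Hoxb3 became 0.11 with the mean of probe sets, -0.062 to 0.074 without single arrays (above 0 without 3 h replicate 3 or 12 h replicate 1 or 2) and 0.058 with the fat covariate. Hoxc6 there became 0.0098 with an offset of 64 and -0.29 to 0.16 without single arrays (above 0 without 3 h replicate 1 or 4 or 12 h replicate 2 or 4). Of the other single-gene values, 539 kept direction and side of the threshold, and 111 kept direction but lost their call. The remaining Hox genes were followed under scaling and offset only, where signs of some dim ones turned too. Examples are Hoxc10 at 3 h (0.0028, but -0.0085 with an offset of 1) and Hoxc5 at 12 h against 3 h (-0.023, but 0.015 with an offset of 1).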
